A study of Mus musculus with 4 samples.

Results

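Intergenic distal regions are the open-chromatin regions that lie between genes, more than 10 kb and at most 100 kb from the nearest annotated transcript start. Chromatin accessibility was mapped by ATAC-seq, in which the Tn5 transposase cuts and tags open DNA, in mouse limb cells at E11.5. Forelimbs and hindlimbs were pooled from embryos of the strain background c57bl6.J X 129S6.sv, and the cells were fixed before transposition. Embryos with an inserted stop cassette gave 2 libraries and wild-type embryos gave 2, and the study concerns Maenli, a long noncoding RNA of the En1 locus. The labels give neither the zygosity of the insertion nor the number of embryos behind a library. One list of peak summits was deposited per library, and the lists held 79083 and 107827 summits for stop cassette 1 and 2 and 51701 and 68471 for wild type 1 and 2. Each summit was extended by 250 bp on both sides and overlapping intervals of the 4 lists were merged, which gave 74669 regions on mm9. Of these, 16414 (22.0%) were intergenic distal, since they overlapped no gene body and their summit nearest to a transcript start lay within the 10 to 100 kb limits. A region is said here to be held by a list when at least 1 of its summits came from that list. Of the other regions, 18510 lay within 1 kb of a start, 17142 lay 1 to 10 kb away, 12992 lay in introns at 10 to 100 kb, 1822 touched exons at that distance, 7705 lay beyond 100 kb and 84 were on unplaced sequences.

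Distal regulatory elements such as enhancers carry clusters of transcription factor binding sites and can act on promoters over long distances along the chromosome. Many control genes of limb patterning in a tissue-restricted way, and open chromatin away from promoters is usually more cell-type specific than open chromatin at promoters. Other distal open sites are bound by CTCF, which helps to shape chromosome loops, and open chromatin alone does not show that a sequence is an enhancer or which gene it acts on. The limb bud holds mesenchyme, ectoderm, muscle precursors, vessels and blood cells. At the genes' own starts, 30 of 41 transcription factor genes of the limb mesenchyme were open in all 4 lists, against 0 of 8 liver genes. The same held for 20 of 32 limb signalling genes, 6 of 9 neural genes, 3 of 10 ectoderm genes and 2 of 7 muscle precursor genes. It also held for 3 of 8 endothelial genes and 3 of 7 blood genes. All 17 genes of cytosolic ribosomal proteins searched were open at their starts in all 4 lists, as were 12785 of 22238 protein-coding genes.

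The sequences below are 300 bp windows of the mm9 reference, plus strand, around the strongest summit of 8 regions. They show the kinds of sequence met with. The first was the intergenic distal region with the highest rank, on chr9:35112889-35113188 and 23616 bp upstream of the start of Gm5614. The next pair, on chr17:17431114-17431413 upstream of Gm6712 and chr8:4612998-4613297 upstream of Zfp958, took the next places, and capitals mark the stretch over which they aligned, 133 alignment columns at 71.4% identity. The third pair were the highest-ranked regions held by both stop cassette lists and absent from the wild-type lists, on chr1:55023807-55024106 near Ankrd44 and chr1:193677321-193677620 near Nek2, and capitals mark their aligned stretch, 224 columns at 71.4% identity. The last 3 windows were the region chosen in the same way for the wild-type lists on chr2:27668848-27669147 near Col5a1, a region on chr1:122556110-122556409 that was 57161 bp downstream of the En1 start, and the highest-ranked region near Cxcr7 on chr1:92186085-92186384. In these 3, capitals mark matches to the short motifs described with the base composition.
Gm5614 region: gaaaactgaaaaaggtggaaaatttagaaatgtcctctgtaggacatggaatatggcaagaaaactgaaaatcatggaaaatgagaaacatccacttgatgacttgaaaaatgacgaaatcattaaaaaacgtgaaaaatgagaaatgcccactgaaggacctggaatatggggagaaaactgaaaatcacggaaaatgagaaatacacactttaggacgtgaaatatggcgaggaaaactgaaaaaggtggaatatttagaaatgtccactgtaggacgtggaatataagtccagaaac
Gm6712 region: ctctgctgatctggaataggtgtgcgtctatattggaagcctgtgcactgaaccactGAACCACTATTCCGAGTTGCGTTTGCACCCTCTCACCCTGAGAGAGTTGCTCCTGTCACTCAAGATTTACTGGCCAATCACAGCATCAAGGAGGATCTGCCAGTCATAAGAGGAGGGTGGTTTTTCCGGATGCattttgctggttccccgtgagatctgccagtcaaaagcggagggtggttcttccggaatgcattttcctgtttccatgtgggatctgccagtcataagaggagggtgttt
Zfp958 region: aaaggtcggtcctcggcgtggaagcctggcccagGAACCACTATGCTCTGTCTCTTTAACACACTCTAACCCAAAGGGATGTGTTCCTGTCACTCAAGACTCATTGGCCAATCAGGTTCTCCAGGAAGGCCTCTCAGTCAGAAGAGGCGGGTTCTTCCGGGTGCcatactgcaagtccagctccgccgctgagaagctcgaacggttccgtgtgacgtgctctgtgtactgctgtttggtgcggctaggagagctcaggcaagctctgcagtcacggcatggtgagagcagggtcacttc
Ankrd44 region: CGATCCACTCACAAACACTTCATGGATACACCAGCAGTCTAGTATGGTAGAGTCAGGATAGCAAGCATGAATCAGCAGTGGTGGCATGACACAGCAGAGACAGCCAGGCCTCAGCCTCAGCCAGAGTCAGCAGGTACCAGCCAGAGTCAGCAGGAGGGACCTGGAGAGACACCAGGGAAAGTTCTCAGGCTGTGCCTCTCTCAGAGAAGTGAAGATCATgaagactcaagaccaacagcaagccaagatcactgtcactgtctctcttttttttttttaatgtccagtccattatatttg
Nek2 region: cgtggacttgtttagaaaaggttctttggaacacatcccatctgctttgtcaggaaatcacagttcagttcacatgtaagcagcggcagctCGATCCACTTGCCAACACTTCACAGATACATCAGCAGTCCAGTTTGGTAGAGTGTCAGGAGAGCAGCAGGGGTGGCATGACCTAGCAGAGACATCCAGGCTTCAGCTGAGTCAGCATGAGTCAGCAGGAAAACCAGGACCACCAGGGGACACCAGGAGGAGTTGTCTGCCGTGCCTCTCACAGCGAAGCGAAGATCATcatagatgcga
Col5a1 region: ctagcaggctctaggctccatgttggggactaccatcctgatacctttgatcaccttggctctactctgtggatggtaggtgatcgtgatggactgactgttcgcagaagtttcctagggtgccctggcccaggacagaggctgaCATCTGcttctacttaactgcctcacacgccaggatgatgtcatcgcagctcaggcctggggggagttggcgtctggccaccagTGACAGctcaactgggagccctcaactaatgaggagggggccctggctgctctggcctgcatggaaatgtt
En1 region: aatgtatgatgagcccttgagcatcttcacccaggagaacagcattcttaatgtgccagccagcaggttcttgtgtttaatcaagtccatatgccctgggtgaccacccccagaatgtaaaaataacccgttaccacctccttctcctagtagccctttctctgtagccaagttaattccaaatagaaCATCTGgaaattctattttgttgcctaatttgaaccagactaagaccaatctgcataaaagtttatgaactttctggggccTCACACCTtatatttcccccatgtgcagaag
Cxcr7 region: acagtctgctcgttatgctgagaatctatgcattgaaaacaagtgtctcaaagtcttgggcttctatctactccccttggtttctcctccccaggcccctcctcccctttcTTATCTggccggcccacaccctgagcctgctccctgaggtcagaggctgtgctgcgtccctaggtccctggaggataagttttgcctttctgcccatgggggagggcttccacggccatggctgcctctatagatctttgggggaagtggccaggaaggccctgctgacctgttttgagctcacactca

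The lists differed widely in how many of these regions they held. Stop cassette 1 held 8617 (52.5% of the 16414), stop cassette 2 held 13814 (84.2%), wild type 1 held 5292 (32.2%) and wild type 2 held 7754 (47.2%). Both stop cassette lists thus held more than either wild-type list, and the order was that of the number of summits in each list. The mean was 11216 ± 3675 (SD, n = 2) for the stop cassette and 6523 ± 1741 (SD, n = 2) for the wild type. The difference of 4692.5 regions had p = 0.333 in a two-sided exact permutation test over libraries (adjusted p = 0.667 by Benjamini-Hochberg over 4 measures), and 0.333 is the smallest p that 2 libraries against 2 can give. The difference was 7379 without stop cassette 1 and 2144.5 without stop cassette 2. The depth of the libraries is unknown because the lists hold no read counts. With every list reduced to its 51701 strongest summits, the length of the shortest, the 4 lists held 5679, 6805, 5356 and 5660 regions in the same order. Stop cassette 1 and wild type 2 then differed by few regions, and stop cassette 2 stayed the highest.

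As a share of all regions in a list, intergenic distal regions made up 18.9% and 21.6% of the stop cassette lists and 17.2% and 19.3% of the wild-type lists. The ranges of the genotypes overlapped, and the difference of 2.0 percentage points had p = 0.667 in the exact permutation test. It was 3.35 points without stop cassette 1, 0.587 without stop cassette 2 and 0.981 without wild type 1. With only summits above the pooled median score it was 4.16 points and the genotypes did not overlap (exact permutation p = 0.333). At equal list length the shares were 16.8% and 18.6% against 17.2% and 17.4%, with a difference of 0.415 points (exact permutation p = 1). The 95% Wilson intervals of the shares, which cover counting error only, were at most 1 point wide.

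Presence in the lists was patchier than for the regions as a whole, which include those at starts. All 4 lists held 3517 intergenic distal regions, or 21.4% (Wilson interval 20.8% to 22.1%), against 32% of all merged regions and 71.5% of regions within 1 kb of a start. In the other classes away from starts the share in all 4 lists was lower. It was 19.9% at 1 to 10 kb, 16.2% in introns, 20.9% at exons and 15.8% beyond 100 kb. A single list held 6829 intergenic distal regions (41.6%), against 35.4% of all regions. That share was 40.2% at 1 to 10 kb, 46.3% in introns, 37.4% at exons and 49.1% beyond 100 kb. The most frequent pattern was presence in stop cassette 2 alone, with 4439 regions or 27.0%, beside 22.1% of all regions. Stop cassette 1 alone held 1380 (8.41%, beside 8.22% of all regions). Wild type 1 alone held 295 (1.80%, beside 1.52%) and wild type 2 alone 715 (4.36%, beside 3.54%). A further 1320 (8.04%, beside 6.57%) were held by the second replicate of each genotype and by neither first replicate.

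**Figure D1:**
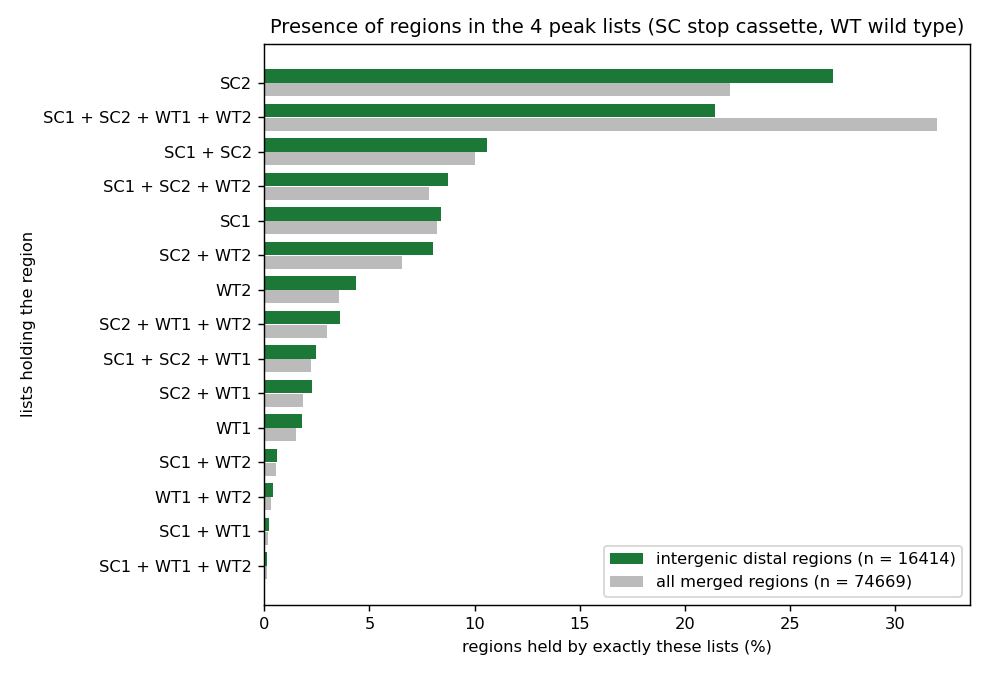
Share of regions (%) held by exactly the lists named at the left, for 16414 intergenic distal regions (green) and all 74669 merged regions (grey). Presence in all 4 lists is less frequent in the intergenic distal regions (21.4%) than in all regions (32%). Presence in stop cassette 2 alone is the longest green bar (27.0%), beside 22.1% of all regions.

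Among the intergenic distal regions, 1738 were specific to the stop cassette, that is, held by both of its lists and by no wild-type list. This was 10.6% of them, beside 10% of all merged regions. Another 65 were specific to the wild type in the same sense, which was 0.396% beside 0.313% of all regions. The shares of genotype-specific regions were therefore near those of all regions. At equal list length 10424 intergenic distal regions were left, of which 623 (5.98%, beside 5.22% of all regions) were specific to the stop cassette, 304 (2.92%, beside 2.24%) to the wild type, and 2508 (24.1%, beside 38.3%) were in all 4 lists. The larger number on the stop cassette side went with longer lists, and how much of it was due to length was not tested beyond the equal-length counts. Leaving a library out of the merge changed these numbers, because 1 list then stood for its genotype. The stop cassette-specific count was 6256 without stop cassette 1, 3197 without stop cassette 2, 2148 without wild type 1 and 3190 without wild type 2. The wild type-specific count was 84, 662, 784 and 363 in the same order.

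Width and rank rose with the number of lists that held a region, which the construction favours, since a region merged from more summits cannot be narrower and takes its highest summit in each list. The rank of a region in a list is the percentile of its highest summit score, from 0 for the weakest to 100 for the strongest summit of that list. The median of the mean percentile was 22.9 for regions held by 1 list, 36.8 for 2, 44.2 for 3 and 62.4 for all 4. The median width rose from 501 bp, the width of a lone extended summit, through 567 and 625 bp to 857 bp. Scores at the low end take few distinct values, so that several medians fall on the same step.

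Within the lists, intergenic distal regions had median percentiles of 46.9 in stop cassette 1, 49.8 in stop cassette 2, 42.3 in wild type 1 and 48.1 in wild type 2. The genotypes overlapped, with a difference of 3.12 percentile points (exact permutation p = 0.667). It was 0.291 without wild type 1, 1.83 without stop cassette 2 and 6.01 without wild type 2, and 6.54 above the pooled median score. At equal list length the medians were 40.7, 44.2, 42.1 and 45.2, and the sign of the difference turned to -1.21. Few of the regions were among the strongest of a list. Between 2.78% and 4.47% of those held had their highest summit among the top 10% of the list's summits. At transcript starts 31.6% to 46.2% of the regions did. Regions at starts were wider, with a median of 1086 bp against 537 bp, and taking the highest summit favours regions with more summits.

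The rank order of the 3517 regions held by all 4 lists was compared between pairs of lists as a description. Spearman's rho was 0.60 between the stop cassette lists and 0.581 between the wild-type lists. Between genotypes it was 0.426 and 0.501 for stop cassette 1 and 0.599 and 0.618 for stop cassette 2. Stop cassette 2 was thus as close to the wild-type lists as to the other stop cassette list, and stop cassette 1 was the list that stood apart.

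Compared with the intronic regions at the same distances, intergenic distal regions were held more often and ranked higher in each of the 4 libraries. The share held was larger by 3.94 and 1.71 percentage points in the stop cassette lists and by 5.0 and 4.99 points in the wild-type lists, with a mean of 3.91 ± 1.55 (SD, n = 4). The median percentile was higher by 10.1, 3.92, 10.6 and 11.2 points, with a mean of 8.96 ± 3.39 (SD, n = 4). With the mean of a region's summits in a list in place of the highest, the difference was 3.23 points (exact p = 0.125). Each of these had p = 0.125 in a two-sided exact sign-flip permutation test over libraries, the smallest that 4 libraries can give, and an adjusted p of 0.25 over 6 comparisons. Against regions beyond 100 kb the median percentile was higher by 8.48 ± 4.34 points (SD, n = 4), again in 4 of 4 libraries (exact p = 0.125), and by 4.81 points with the mean of a region's summits.

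The comparison with regions 1 to 10 kb from a start depended on stop cassette 1. In that list 62.5% of the nearer regions and 52.5% of the intergenic distal regions were held, a difference of -10.03 points. In the other 3 lists the intergenic distal regions were held more often, by 3.64, 3.29 and 4.12 points. The mean difference of 0.257 points had p = 1 in the exact sign-flip test, and without stop cassette 1 it was 3.69 points. The median percentile differed by -0.169 points from that of the nearer regions (exact sign-flip p = 0.875) and by -2.72 with the mean of a region's summits (p = 0.125 in the same exact test). Stop cassette 1 also held 36.1% of the regions beyond 100 kb, 16.4 points fewer than of the intergenic distal regions, while the other lists differed there by -0.551 to 3.03 points. Without it that difference was 1.17 points in place of 4.97.

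**Figure D2:**
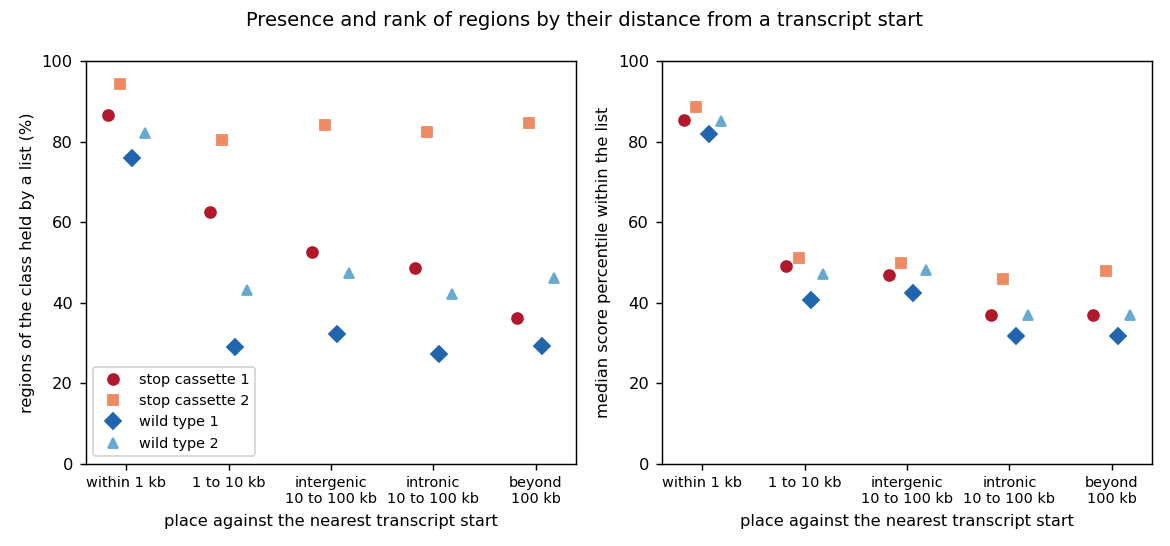
Left, share of the regions of each class held by each of the 4 lists (%), and right, the median score percentile of the regions held, with 1 point per list. Intergenic regions at 10 to 100 kb lie above intronic regions of the same distance in each list on both axes, and stop cassette 1 falls from 62.5% at 1 to 10 kb to 36.1% beyond 100 kb.

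The regions just inside and just outside the limits of the definition were compared as a description. Of 607 intergenic regions 9 to 10 kb from a start, just outside the lower limit, 22.7% were in all 4 lists, and of 610 at 10 to 11 kb, just inside it, 22.5% were. Of 639 at 90 to 100 kb the share was 19.9%, and of 560 at 100 to 110 kb it was 16.1%.

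Density fell with distance from a start. Intergenic sequence at 10 to 100 kb covered 758 Mb and held 21.6 regions per Mb. The density was 25.9 per Mb at 10 to 20 kb and 16.5 per Mb at 90 to 100 kb. Between those bins the density fell from 15.7 to 6.81 per Mb in stop cassette 1, from 21.3 to 14.1 in stop cassette 2, from 8.17 to 5.34 in wild type 1 and from 12.1 to 8.15 in wild type 2. The direction was the same in each list, and the fall was steepest in stop cassette 1. The share held by all 4 lists moved little, between 19.5% and 22.6% over the bins. Upstream and downstream of the nearest start the densities were 21.5 and 21.8 per Mb.

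**Figure D3:**
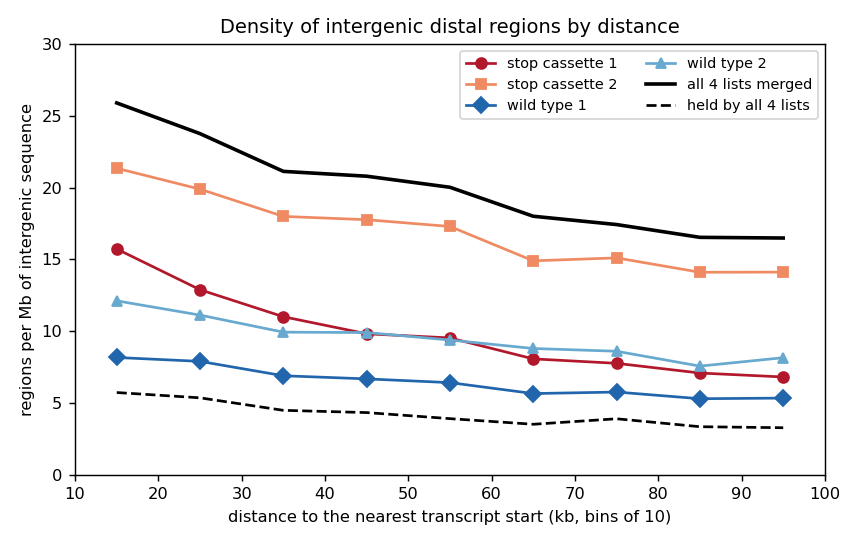
Intergenic distal regions per Mb of intergenic sequence in bins of 10 kb from the nearest transcript start, for each list, for the 4 lists merged (solid black) and for regions held by all 4 lists (dashed). The merged density falls from 25.9 per Mb in the nearest bin to 16.5 per Mb in the farthest, and the line of stop cassette 1 meets that of wild type 2 at 40 to 60 kb and lies below it farther out.

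The median gap from an intergenic distal region to the nearest other one on either side was 8.97 kb. Another lay within 10 kb of 52.3% and within 1 kb of 16.3%, some of which may be parts of 1 site that were not merged. They were nearest to 7554 genes, of which 672 had 5 or more and 43 had 10 or more. The 672 genes accounted for 25.8% of the regions. Being nearest does not make a gene the target of a region.

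The genes with the most regions were a mixture. An annotated miRNA gene, AC122043.1 (chr5:65038872-65038988), had 16, of which 13 were in stop cassette 1, 11 in stop cassette 2, 6 in wild type 1, 11 in wild type 2 and 6 in all 4. A 5S_rRNA gene on chromosome 17 had 15, with 6, 14, 7 and 11 in the lists. Cxcr7, an atypical chemokine receptor, also had 15 in 102.28 kb of intergenic sequence, with 11, 11, 4 and 7 in the lists. The stop cassette lists held more of the Cxcr7 regions than the wild-type lists did, but AC122043.1 and the 5S_rRNA gene show overlapping counts.

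Pabpc1, which encodes the cytoplasmic poly(A)-binding protein, had 14 regions with 13, 11, 4 and 6 in the lists, 5 of them specific to the stop cassette. A U6 snRNA gene on chromosome 1 had 14 as well, with 12, 10, 6 and 5. Both therefore had more regions in each stop cassette list than in each wild-type list, as the lists did overall. Calcoco1, Gm9530, Tnp1 and Gm11019 had 13 each, and Tnp1 encodes a transition protein of maturing sperm nuclei. St3gal1, a sialyltransferase, had 12. The splicing factor gene Syf2 had 11, with 11, 10, 4 and 5 in the lists, and 3830408C21Rik, AC131596.1, Gm17734, Ralgps2, Glrp1 and Gm5468 had 11 as well. Cpsf6, a factor of messenger RNA 3' end formation, had 10, as did Gm12829 and Gm15754. Gm15754, a pseudogene, had the highest density of these 20, with 10 regions in 50.95 kb. Gm11019 and Gm5468 had no region in all 4 lists, and 10 of the 11 at Gm5468 were in stop cassette 2 against 1 in stop cassette 1.

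Of the 20 genes, 11 were protein-coding. Small RNA genes and pseudogenes inside larger intervals took regions that a protein-coding start would otherwise have been nearest to. With each region assigned to its nearest protein-coding start, a choice made after the counts were seen, Zeb2 had 24 regions, with 11, 19, 9 and 13 in the lists. Zeb2 encodes a zinc-finger homeobox repressor, and its 24 regions lay in 912.18 kb of sequence. Bmp2, a signalling ligand of the limb, had 19 in 299.56 kb, with 12, 15, 7 and 10 in the lists and 7 in all 4. Haao had 18 in 139.71 kb, and S1pr1, a receptor for sphingosine 1-phosphate, had 18 in 329.02 kb, each with 7 in all 4 lists. Bcor and Hmcn1 had 20, the transcription factor genes Klf3 and Foxa2 17, and Cited2 and Nr2f1 16.

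Near genes of limb development, 24 of 41 transcription factor genes of the mesenchyme had at least 1 intergenic distal region by nearest start of any kind, with 78 regions in all and a median of 2 per gene. Over all 22238 protein-coding genes 4729 (21.3%) had 1, with a median of 0. By nearest protein-coding start the list had 184 regions at 36 of 41 genes, or 3.23 per 100 kb of intergenic sequence, against 2.17 for all protein-coding genes. By nearest start of any kind the list had 3.31 per 100 kb, against 2.58 for all protein-coding genes. On that assignment the order was the reverse for regions in all 4 lists, with 0.510 against 0.558 per 100 kb. Of the list's 78 regions 15.4% were in all 4 lists, against 21.7%. The density of regions in all 4 lists was not computed by nearest protein-coding start. By nearest protein-coding start the list's density was 1.10, 2.75, 0.947 and 1.58 per 100 kb in the separate lists. For all protein-coding genes it was 1.14, 1.82, 0.698 and 1.02. The list's density was thus above that of all genes in stop cassette 2 and both wild-type lists, and slightly below it in stop cassette 1.

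Twist2, a basic helix-loop-helix factor of mesenchyme, had 8 regions, with 3, 7, 1 and 4 in the lists. Msx1, a homeobox gene of the distal limb mesenchyme, had 7, with 3, 6, 3 and 5 in the lists and 2 in all 4. Gli3, a transcription factor of hedgehog signalling, had 6, with 2, 6, 4 and 2. Barx1 had 4, with 1, 3, 1 and 2. Of other genes of the list with 4 regions, Zfhx3 had 3, 3, 0 and 4 in the lists, and it is named after its values were seen. No one order of the lists held for all these genes.

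Limb signalling genes had 46 regions at 21 of 32 genes by nearest start and 117 by nearest protein-coding start, or 2.47 per 100 kb. Dusp6, a phosphatase that limits MAP kinase activity downstream of FGF signalling, had 6, with 4, 6, 3 and 6 in the lists. Its highest-ranked region lay 35390 bp downstream of the start on chr10:98761005-98762376, with percentiles of 50.4, 89.4, 70.1 and 77.0. The hedgehog receptor gene Ptch1 had 4, with 3, 4, 2 and 2 in the lists, and the FGF feedback inhibitor gene Spry4 had 4, with 3, 3, 1 and 2. Rarb, a retinoic acid receptor gene, had 4, with 0, 3, 1 and 1.

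En1, a homeobox gene of the ventral limb ectoderm, had 6 intergenic distal regions, with 3 in stop cassette 1, 6 in stop cassette 2, 3 in wild type 1 and 5 in wild type 2. The 3 in all 4 lists lay 41112, 57161 and 83597 bp downstream of its start. The region at 57161 bp, whose sequence is shown above, had percentiles of 36.8, 79.8, 4.54 and 57.4. The region at 41112 bp had 36.8, 68.6, 58.1 and 20.7, and the region at 83597 bp had 3.38, 28.8, 4.54 and 66.0. None of the 3 separated the genotypes. Upstream of En1, a region at 15707 bp was held by stop cassette 2 and wild type 2 at percentiles of 34.7 and 36.9, and so was a region 11458 bp downstream, at 28.0 and 4.21. The sixth, at 96831 bp downstream, was held by stop cassette 2 alone. The start of En1 itself was open in 1 of 4 lists.

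Of the other genes of the ectoderm list, Epcam, an epithelial adhesion molecule, had 3 regions, and its highest mean percentile was 91.9. Sp8, a zinc-finger factor of the apical ridge, had 2. In all, 3 of 10 ectoderm genes had a region by nearest start, beside 21.3% of all protein-coding genes, with a median of 0 in both. The list's density by nearest protein-coding start was 2.80 per 100 kb against 2.17.

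All 7 genes of muscle precursors had at least 1 region, with 19 in all and 12, 15, 5 and 8 in the lists. Lbx1, a homeobox gene of migrating muscle precursors, had 5, with 3, 4, 0 and 2 in the lists. Pax3 had 3, with 3, 2, 2 and 2, and Eya1 had 3, with 2, 3, 1 and 2. The list's density by nearest protein-coding start was 3.75 per 100 kb, with 1.81, 3.20, 0.834 and 1.39 in the lists. The muscle list was thus higher in each stop cassette list than in each wild-type list, as were the regions of all genes.

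Genes of endothelium and blood were also among those with regions. Cdh5, the cadherin of vascular endothelium, had 9 regions in 90 kb, with 5, 9, 4 and 6 in the lists and 4 in all 4, although its start was open in 0 of 4 lists. Erg, an ETS factor of endothelium, had 4, with 3, 3, 1 and 1, and Sox17 had 1. Over the 8 endothelial genes there were 14 regions at 3 genes, with 9, 13, 5 and 7 in the lists. The 7 blood genes had 6 regions, with 5, 5, 2 and 3 in the lists. These were 3 at Runx1, 2 at Ptprc and 1 at Gata1. At their own starts 4, 4, 4 and 3 of the 7 blood genes and 4, 6, 3 and 3 of the 8 endothelial genes were open. The region counts of vessel and blood genes were thus higher in each stop cassette list than in each wild-type list, as were those of all genes. The blood counts rest on 6 regions, and the open blood starts did not separate the genotypes. The part of vessel and blood genes in the difference between lists was not tested.

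The remaining lists were mixed. Neural genes had 10 regions at 7 of 9 genes (77.8%), of which Pou4f1 had 3 and Nkx2-1 had 2. That share of genes was above those of the limb mesenchyme (58.5%) and limb signalling (65.6%) lists. The neural density by nearest protein-coding start was 1.55 per 100 kb, against 2.17 for all protein-coding genes. Liver genes had 3, all at Apob, with 1, 3, 1 and 1 in the lists. Ribosomal protein genes had 1, at Rps24, which was in all 4 lists. By nearest protein-coding start the ribosomal genes had 10 regions in 0.319 Mb, or 3.14 per 100 kb, so that the order of the lists depended on the assignment for short intervals. The gene lists were compared by counts only.

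**Figure D4:**
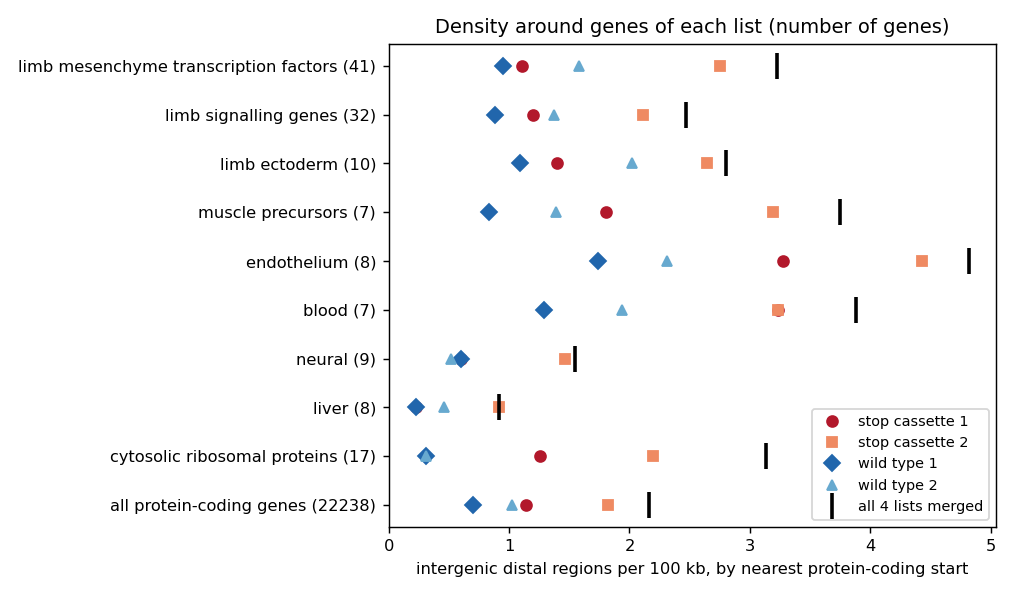
Intergenic distal regions per 100 kb of intergenic sequence whose nearest protein-coding start belongs to each gene list, for each peak list (symbols) and the 4 lists merged (bars). For all protein-coding genes the merged value is 2.17, for transcription factor genes of the limb mesenchyme 3.23 and for endothelial genes 4.82, and wild type 1 is lowest in most rows.

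The median GC content of the 300 bp windows was 48.3%, against 48.0% for intronic regions, 45.0% beyond 100 kb and 62.7% at starts. It was 51.3% for those in all 4 lists and 47.0% for those in 1 list. The ratio of observed to expected CpG was 0.242 at the median, against 0.727 at starts, and 5.95% of the windows had a ratio above 0.6, against 2.29% of intronic windows and 2.75% of those beyond 100 kb.

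Matches to 16 short motifs were sought on both strands of these windows. The CTCF motif was searched by its usual consensus, with allowance for alternative bases. AP-1 sites were searched as TGANTCA, homeodomain sites as TAATTA and sites of the HOX13 type as CCAATAAA. E-boxes were searched in a pair of forms, as CATCTG and separately as CAGCTG. Sites of the PITX type were searched as TAATCC, SOX sites as ACAATGG, TEAD sites as CATTCC and GATA sites as AGATAA. For ETS factors the letters were CCGGAAGT, for NRF1 they were CGCATGCG, and for RUNX factors TGTGGTT. For GLI factors the letters were GACCACCCA, for TBX factors TCACACCT and for MEIS factors TGACAG. A match is a description of the sequence and does not show binding. The CTCF motif was in 7.83% of intergenic distal windows, against 5.84% of all windows of the same length and 3.24% beyond 100 kb. The homeodomain motif was in 10.6%, against 8.10% of all windows and 14.5% beyond 100 kb. The E-box CATCTG was in 29.5% against 25.4%, AP-1 in 10.4% against 9.01% and GATA in 14.5% against 13.1%. All windows include those at starts. In the intronic windows at the same distances the E-box CATCTG was in 30.9%, AP-1 in 10.6%, GATA in 15.9% and the homeodomain motif in 10.9%, slightly more than in the intergenic distal windows, and the CTCF motif in 5.52%. The CTCF motif was in 8.65% of the windows 1 to 10 kb from a start. The promoter motifs went the other way, with ETS in 0.542% against 1.69% and NRF1 in 0.262% against 0.788%.

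Windows with the CTCF motif ranked higher than those without it in each list. Their median percentiles were 51.2 against 45.5 in stop cassette 1, 62.4 against 47.8 in stop cassette 2, 46.6 against 41.4 in wild type 1 and 50.7 against 46.7 in wild type 2. The share held was also higher in each list, most of all in stop cassette 1, which held 70.1% of the regions with the motif and 51.0% of those without. The few windows with the ETS or NRF1 motif (89 and 43) also had higher medians in each list.

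For several motifs stop cassette 1 stood apart from the other lists. The GATA motif was in 17.4% of the regions held by stop cassette 1, 13.8% for stop cassette 2, 13.6% for wild type 1 and 12.8% for wild type 2. The CTCF motif was in 10.5%, 8.33%, 8.11% and 8.41%. The homeodomain motif was in 8.44%, 10.9%, 9.69% and 10.6%. The E-box CATCTG was in 27.3%, 29.6%, 29.6% and 30.5%, and the TEAD motif in 17.3%, 18.9%, 18.3% and 18.7%. In these 5 motifs stop cassette 1 was the extreme list, and stop cassette 2 lay within 0.3 points of a wild-type list. AP-1 was in 11.3% and 10.01% for the stop cassette against 9.33% and 9.03% for the wild type, without overlap. The E-box CAGCTG was in 23.4% and 24.8% against 26.2% and 26.1%, a larger difference in the other direction. RUNX was in 6.6% and 6.8% against 6.2% and 6.3%. The genotypes also did not overlap for GATA, TBX and, narrowly, the E-box CATCTG. The exact permutation p was 0.333 for GATA, AP-1, RUNX, TBX and the E-boxes CATCTG and CAGCTG. It was 0.667 for CTCF and 1 for the homeodomain and TEAD motifs, and the lowest adjusted p over 16 motifs was 0.821.

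Regions held by stop cassette 1 alone carried the GATA motif in 24.1% of 1380 windows and AP-1 in 15.1%, against 11.7% and 9.39% of the 4439 held by stop cassette 2 alone. Regions specific to the stop cassette carried GATA in 21.5%, AP-1 in 14.6%, CTCF in 12.7% and the homeodomain motif in 7.83% of 1738 windows. Over all intergenic distal windows the shares were 14.5%, 10.4%, 7.83% and 10.6% in that order. Every stop cassette-specific region was by definition held by stop cassette 1. Whether these shares went with that list or with the genotype was not tested. With the regions that resembled one another in sequence left out, 13.8% of the 1568 remaining stop cassette-specific windows carried the CTCF motif and 13.3% carried AP-1.

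**Figure D5:**
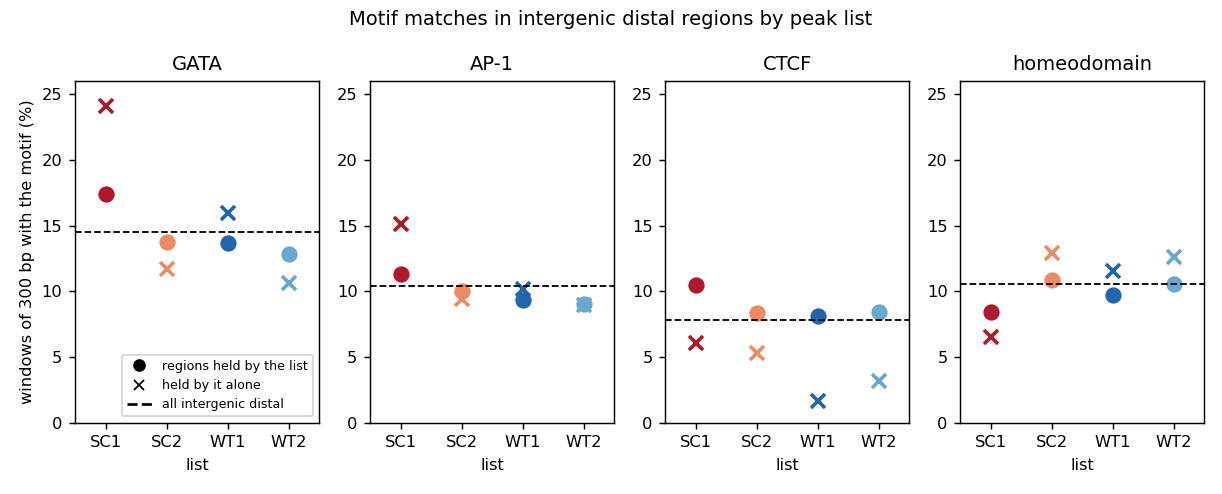
Share (%) of 300 bp windows with a match to the GATA, AP-1, CTCF or homeodomain motif, for intergenic distal regions held by each list (circles) and by that list alone (crosses), with all intergenic distal regions as the dashed line. For GATA, stop cassette 1 is at 17.4% for regions held and 24.1% for regions held alone, above the other 3 lists.

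Some regions resembled one another in sequence. Windows were linked wherever at least 100 bp aligned at 75% identity or more, a threshold chosen after the sequences had been seen. At that setting 1150 regions (7.01%) resembled at least 1 other, and 26 groups of 5 or more held 859 (5.23%). A single group held 540 of the 859. Regions of a group need not all be linked to one another directly. The 26 groups held 2.84% of the regions in all 4 lists, 7.59% of those specific to the stop cassette and 15.1% of those held by stop cassette 1 alone. For regions held by 1 other list alone the shares were 4.15% in stop cassette 2, 10.5% in wild type 1 and 5.31% in wild type 2. By list they made up 6.28% of the regions of stop cassette 1, 4.13% of stop cassette 2, 3.5% of wild type 1 and 3.43% of wild type 2. At 150 bp and 80% identity, 15 groups with 213 regions were left, the largest with 79. They held 0.768% of the regions in all 4 lists, 2.24% of those specific to the stop cassette and 5.14% of those held by stop cassette 1 alone. Of those held by stop cassette 2, wild type 1 or wild type 2 alone they held 0.743%, 0.678% and 0.979%. The authors required a mapping quality of 30, per the peak names in the deposited lists, and reads that map to several copies can be lost or placed on 1 of them at that setting.

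The Ankrd44 and Nek2 regions shown above belonged to one such group of 47. The alignment shown for this pair, at 71.4% identity, was below the threshold for a direct link. Of the 47, stop cassette 1 held 41, stop cassette 2 held 31, wild type 1 held 4 and wild type 2 held 8, and 22 were specific to the stop cassette. Their median percentile was 72.1 in stop cassette 1 and 47.8 in stop cassette 2, against 23.8 and 20.7 in the wild type. AP-1 matches were in 74.5% of their windows. At 150 bp and 80% identity the group with the highest share of AP-1 matches had 9 regions, of which 9, 7, 0 and 0 were in the lists. The Ankrd44 region had percentiles of 90.1 and 85.0 in the stop cassette lists, and the nearest summit of wild type 2 was 3010 bp away. The Nek2 region had 86.0 and 88.0, with wild-type summits at 2042 and 2082 bp. In the mm9 genome the Ankrd44 window had 911 alignments of at least 100 bp at 75% identity or more, itself included, and the Nek2 window had 848. The 2 highest-ranked stop cassette-specific regions thus resembled many other places in the genome at that threshold.

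A group of 21 behaved differently. It included the Gm6712 and Zfp958 regions, whose alignment shown above was also below the threshold, and 19 of the 21 were in all 4 lists. Their median percentiles were 97.4, 98.5, 93.5 and 97.3, so that they were among the strongest intergenic distal regions of each list. The Gm6712 region, on chr17:17430747-17431852, had percentiles of 99.9, 99.9, 99.5 and 99.8, and its window aligned 8 times in the genome. The Zfp958 region, on chr8:4612596-4614041, had 99.7, 99.7, 99.6 and 99.98, and its window aligned 47 times. The region with the highest mean percentile, near Gm5614, had 99.8, 99.7, 100 and 100, and its window aligned 1288 times. All 3 of the strongest regions therefore had further alignments in the reference genome.

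The wild type-specific regions ranked lower within their lists, with a median of the mean percentile of 26.5 against 41.6 for the stop cassette-specific regions. The percentiles come from different lists of unlike length, and wild type-specific regions had to be absent from the longer lists. The 2 wild type-specific regions with the highest mean percentile lay near Col5a1, a fibrillar collagen gene, and near the pseudogene Gm7103. Both had 58.1 in wild type 1 and 68.6 in wild type 2. The Col5a1 region, on chr2:27668730-27669248, lay 72947 bp upstream of the start, and the nearest stop cassette summits were 22804 and 22811 bp away. Its window aligned once in the genome, that is to itself, and the window near Gm7103 aligned 95 times. The region near Cxcr7 shown above had percentiles of 96.2, 92.5, 81.4 and 80.6 and aligned once.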

How the data were processed

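Limb ATAC-seq libraries, 2 per genotype, were mapped to mm9. The tools Bowtie2 2.2.6 and Picard are named in the submitters' processing notes. Names of peaks in the deposited files point to removal of duplicates and of mitochondrial reads and to a mapping quality of 30; the peak caller is not given in the sources used here. The authors deposited 1 summit list per library, not pooled. The value of each summit in the deposited lists was read as −log10 of a q-value, from the layout and a lowest value of 1.30, and was used only to rank summits within a list, except that 1 alternative applied a common threshold of 5.83. Replicate numbers come from the titles. The peak names of both wild-type lists carry 1 shared replicate number, and nothing says that libraries came from separate embryos, so p-values measure only the spread between these samples, which may be technical.

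Starts and gene bodies were from GENCODE M1 on NCBIM37, the build of the files, and 0 summits lay beyond a chromosome end. Sequence was taken from that genome with pysam 0.24.0 and compared with blastn 2.17.0. Tests were exact permutation tests over libraries, computed by full enumeration. Ranks, Spearman correlations and Wilson intervals were computed with scipy 1.17.1. The merging code was run on simulated data, in which 200 of 200 planted regions of each pattern were recovered. The planted sites lay apart from one another and from the background, so this checked the code and not the merging of crowded summits. Gene symbols were matched by symbol or by an older symbol (Spi1, Tfap2a and Tfap2b), and 1 gene, Sox1, was not matched. The regions, gene lists, motifs and tests were chosen with earlier results of these data known. Named genes were the 20 nearest genes with the most regions, En1, and up to 4 per gene list; named regions were the 3 strongest in all 4 lists, 2 per genotype-specific pattern, those nearest En1 and the strongest at each of the 5 leading genes. Dusp6's region was chosen after its values were seen. Some genes that the rule names are not reported here.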

Additional observations from a re-analysis of the deposited data

How the results depend on the processing

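The stop cassette minus wild type difference in regions held, in the share of a list and in the share held kept its sign in each setting run, but its size moved. Leaving out 1 library gave 2144.5 to 7379 regions held, 0.587 to 3.35 points for the share of a list and 17.6 to 48.7 points for the share held. Above the pooled median score the share of a list differed by 4.16 points. The median percentile difference was -1.21 at equal list length, 6.54 above the pooled median score, and 0.291 to 6.01 with 1 library left out. Against regions 1 to 10 kb away, the median percentile difference was 0.0575 at equal list length in place of -0.169, and -2.72 with the mean percentile of a region's summits. That setting gave 3.23 in place of 8.96 against intronic regions and 4.81 in place of 8.48 against regions beyond 100 kb. Leaving out 1 library gave -0.749 to 0.490 for it, and -1.03 to 3.69 percentage points for the share held in that comparison; these 2 were the comparisons between classes that changed sign.

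At equal list length there were 10424 regions (20.1% of all), of which 623 were stop cassette-specific and 304 wild type-specific. Above the pooled median score there were 8498 (19%), with 1282 in all 4 lists and 16 wild type-specific. With an extension of 50 bp there were 25884 (18%), with 227 wild type-specific. With 100 bp the share was 19.2% and 106 were wild type-specific. With protein-coding starts only the share was 19.7%. With a lower limit of 20 kb it was 15.5%, with 1094 stop cassette-specific, and with an upper limit of 50 kb it was 15.8%. Leaving out 1 library gave 2148 to 6256 stop cassette-specific, 84 to 784 wild type-specific, and a share of 20.6% to 21.8%. Apart from the construction of each setting, the cause was not tested.

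The counts at the 21 leading genes, En1 included, stayed within 1.5 times at 14 genes at equal list length, 9 above the pooled median score, 4 with an extension of 50 bp and 6 with an upper limit of 50 kb. With protein-coding starts only, 9 of them dropped to 0 because they are not protein-coding. En1 had 3 regions above the pooled median score and 3 within 50 kb.

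With the replicate number as a block, 2 pairs gave the same differences (4692.5 regions, 2.0 points, 28.6 points and 3.12 percentile points) with an exact sign-flip p = 0.5, the smallest possible. Deviations of same-numbered libraries correlated at r = 0.141 over 3517 regions, but the libraries share only a number. The depth of the libraries is unknown, so a region missing from a list was not detectable there and is not shown to be closed.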

Other observations

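The density of intergenic distal regions was lower on chromosome X than on any autosome. It had 397 regions in 72.2 Mb of eligible sequence, or 5.50 per Mb, and the autosomes had 18 per Mb on chromosome 7 to 26 per Mb on chromosome 10. Their share of the regions of chromosome X, 23.5%, was near the 22.0% over all chromosomes.

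By the kind of the nearest gene, the density was 32.9 per Mb around lincRNA starts (596 regions), 25.7 per Mb around protein-coding starts (10044 regions) and 13.3 per Mb around pseudogenes (1684 regions). The share held by all 4 lists was 22.8%, 21.7% and 20.2% in that order. One intergenic distal window of 16414 matched the mitochondrial genome over at least 100 bp.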
